A study of Mus musculus with 11 samples.

Results

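The spliceosome is built anew on each intron from small nuclear ribonucleoprotein particles (snRNPs) and many further proteins, and the transcripts of 55 of these proteins were chosen by gene symbol. Of the 55, 48 had probe sets with that single symbol in the platform annotation, out of 15803 genes measured. Prpf4, Lsm5, Lsm6, Lsm7, U2af1, U2af2 and Magoh were not among them and are not analysed here. By the particle in which each protein acts, the 48 fell into U1 (2 genes), the Sm core (2), U2 (10), the minor U11/U12 particle (3), the U4/U6.U5 tri-snRNP (10), the Lsm ring (4), the Prp19 complex and its partners (10), recognition of the 3′ splice site (4) and other factors (3). The list was meant to leave out helicases, but Snrnp200, which unwinds the U4/U6 duplex, and Aqr belong to helicase families and were kept because their symbols are on it.

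RNA came from NSC34, a mouse line made by fusing neuroblastoma with embryonic spinal cord cells, and used as a motor neuron model. It was hybridised to 11 Affymetrix whole-transcript arrays. All cells had been transfected with a pSUPERIOR hairpin vector and selected with puromycin, and stable clones were taken. In 4 samples (shTardbp 1 to 4) the hairpin targeted Tardbp, which encodes the RNA-binding protein TDP-43, in 4 (shGFP 1, 2, 3 and 5) it targeted GFP, and in 3 (shLuciferase 1, 2 and 4) Renilla luciferase. The Tardbp hairpin was directed at a stretch of 25 bases, printed here because it defines the depleted group.

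Tardbp hairpin target: TCTAAGCAAAGCCCCAGACGAGCCT

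Nothing in the labels ties the samples of a group to different clones, cultures or wells. The p-values therefore reflect sample-to-sample spread, and that spread may be technical. A gene's value is the mean log2 value of its probe sets. A change is shTardbp minus the average of the 2 control means, tested with limma over all 15803 genes with Benjamini-Hochberg adjustment, and passing means an adjusted p below 0.05.

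The arrays had log2 medians of 6.82 to 6.92. Tardbp lay at 8.80 to 9.0 in shTardbp and at 9.08 to 9.42 in the controls, without overlap (log2 change -0.40, SE 0.0722, limma adjusted p = 0.000713). Over all 330 splits of the arrays, a two-sided exact permutation test returned p = 0.00303, its minimum. Of 8 neuronal markers measured, 8 exceeded each array's 25th percentile (4.46 to 4.57) throughout, while the motor neuron markers Chat, Mnx1 and Slc5a7 lay below it on every array and Isl1, Slc18a3 and Lhx3 above it. Mean levels of the 6 glial, 6 fibroblast and 5 immune markers measured were 4.79 to 5.05, 4.98 to 5.11 and 4.67 to 4.85 in shTardbp, and 4.77 to 4.89, 5.07 to 5.43 and 4.57 to 4.84 in the controls. Single markers moved more than these means, among them Dcn (-1.61, limma adjusted p = 2.77e-08), Pdgfrb (0.41, 0.000753), Syp (0.69, 2.1e-05), Slc18a3 (0.63, 0.000129), Elavl4 (-0.53, 1.29e-05) and Mbp (0.24, 0.0124), and their part in the spliceosome values was not tested. The arrays also carry a code letter of unstated meaning, P for the shTardbp arrays and shLuciferase 4 and C for the other 6 control arrays.

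In the splicing cycle, U1 binds the 5′ splice site and U2, helped by factors that read the 3′ splice site, binds the branch point. The tri-snRNP of U4, U6 and U5 then joins, the Prp19 complex stabilises the catalytic core, and the Lsm ring holds the end of U6 RNA, while U11 and U12 replace U1 and U2 at a rare class of introns. TDP-43 itself binds UG-rich stretches of pre-mRNA and represses exons there, and is not a part of these particles.

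More core spliceosome transcripts fell than rose in Tardbp-depleted cells, and most did not pass the test. Of the 48, 19 fell, 3 rose (22 in all, where 30.5% of all genes passed in either direction) and 26 did not pass, with a median log2 change of -0.13 against 0.01 over all genes. The 19 that fell are 39.6% of the 48, where 17.0% of all genes passed in this direction, and the 3 that rose are 6.25%, where 13.5% did. All 48 lay above the median gene level, and among the 7901 such genes 27.1% fell and 19.7% rose. The counts of each particle and of the other gene lists given further on stand against these same shares, and with so few genes in a particle 1 gene more or less moves its share widely. In 33 of the 48 the change was below 0, as in 7568 of all 15803 genes. Of all 48, 11 had shTardbp values below all 7 control values and 1 had them above (over all genes 9.82% and 8.45%). The sizes were modest, from -0.75 for Prpf31 to 0.27 for Snrnp200 among those that passed. In bulk RNA, less transcript per cell and fewer cells with the transcript cannot be told apart. SDs within a group had a median of 0.102 in shTardbp, 0.114 in shGFP and 0.0835 in shLuciferase over the 48 genes.

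**Figure D1:**
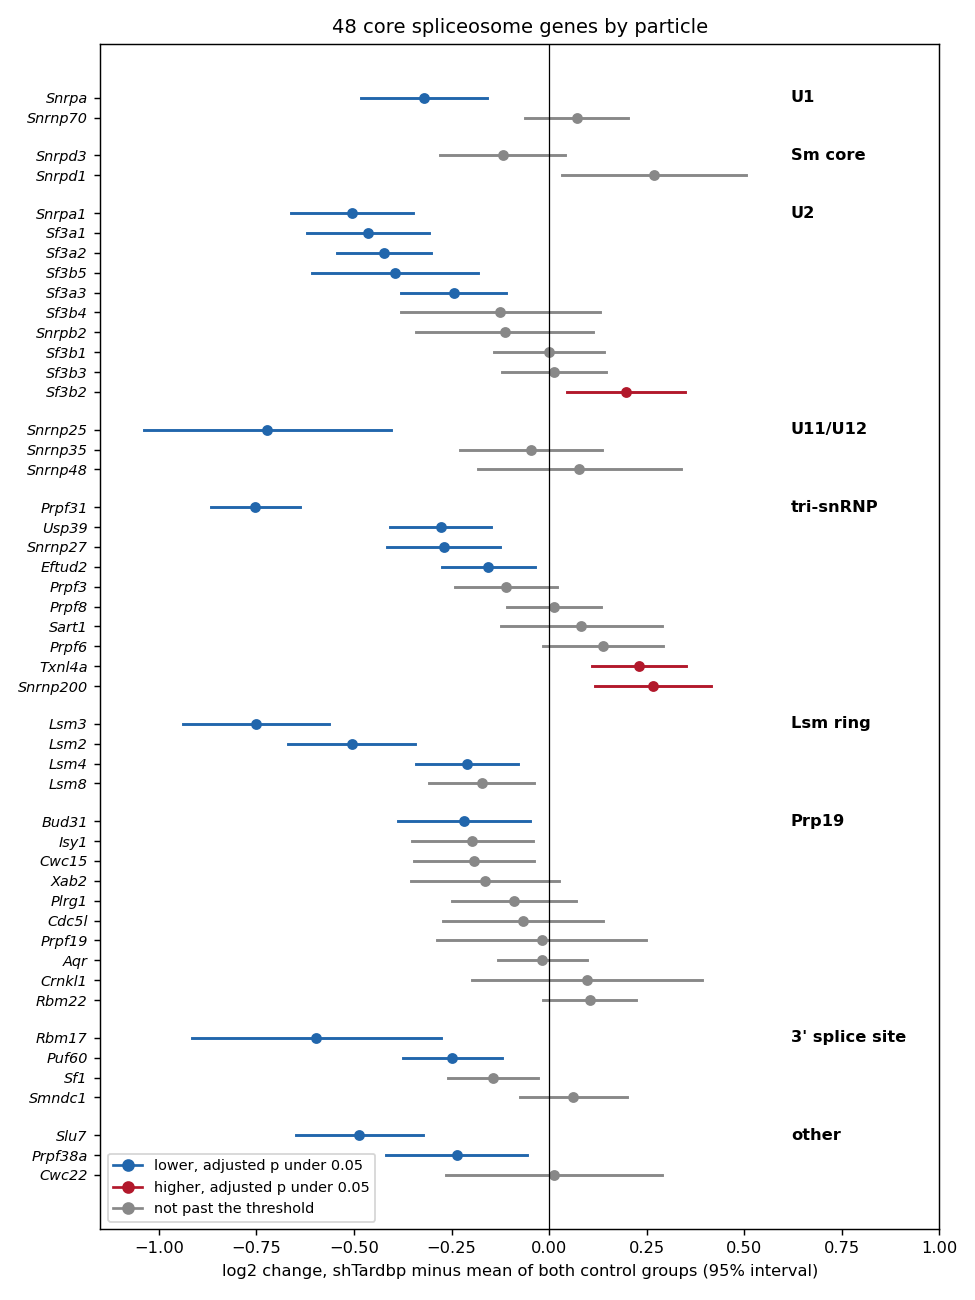
Log2 change (x axis) of each of the 48 genes, shTardbp minus the average of both control means, with its 95% interval, grouped by particle. Blue genes (19) fell and red genes (3) rose with adjusted p under 0.05. The largest falls, Prpf31 and Lsm3, sit near -0.75, and all 3 SF3A genes lie left of 0.

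Promoters are shown for the 4 genes with the smallest adjusted p, since they fell together. They are from RefSeq (build GRCm38.p6) around the transcription start, on the plus strand: chr7:3629735-3630034, chr6:91515785-91516084, chr10:80798485-80798784 and chr7:66060086-66060385. Capitals mark a match on either strand to CCGGAAG (the core of ETS factor sites), GGGCGG (the GC box of Sp factors) or CCAAT.

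Prpf31: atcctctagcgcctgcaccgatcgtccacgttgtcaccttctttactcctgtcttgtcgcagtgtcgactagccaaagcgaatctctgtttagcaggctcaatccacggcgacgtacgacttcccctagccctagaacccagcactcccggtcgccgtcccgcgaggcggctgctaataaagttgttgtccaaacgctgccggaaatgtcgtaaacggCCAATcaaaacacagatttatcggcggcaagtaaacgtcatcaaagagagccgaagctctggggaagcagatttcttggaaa
Lsm3: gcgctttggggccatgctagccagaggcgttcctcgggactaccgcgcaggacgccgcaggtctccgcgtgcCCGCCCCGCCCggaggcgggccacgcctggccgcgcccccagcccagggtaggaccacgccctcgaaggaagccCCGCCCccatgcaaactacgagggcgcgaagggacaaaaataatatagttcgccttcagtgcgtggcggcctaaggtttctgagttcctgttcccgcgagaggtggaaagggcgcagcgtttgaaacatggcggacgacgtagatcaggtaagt
Sf3a2: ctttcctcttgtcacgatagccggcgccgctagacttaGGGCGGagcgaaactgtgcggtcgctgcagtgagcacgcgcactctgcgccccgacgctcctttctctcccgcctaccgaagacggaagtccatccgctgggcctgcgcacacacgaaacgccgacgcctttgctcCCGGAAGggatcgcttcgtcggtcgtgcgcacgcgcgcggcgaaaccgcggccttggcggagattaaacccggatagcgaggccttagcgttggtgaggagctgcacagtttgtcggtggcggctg
Snrpa1: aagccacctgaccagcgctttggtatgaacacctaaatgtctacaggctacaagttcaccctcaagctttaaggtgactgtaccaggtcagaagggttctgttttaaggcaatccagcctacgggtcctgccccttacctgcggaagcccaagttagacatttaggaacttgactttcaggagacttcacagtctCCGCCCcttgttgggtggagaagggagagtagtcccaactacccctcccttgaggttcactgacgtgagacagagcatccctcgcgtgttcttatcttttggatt

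Prpf31 had a CCAAT match alone, Lsm3 had 3 GC boxes, Sf3a2 an ETS core and a GC box, and Snrpa1 a GC box. No motif of the 3 was in all 4 promoters. Of the 48 genes 38 had a promoter in the table, and the first listed was used. CCGGAAG was in 15 of 38 (39.5%), against 19.5% of promoters of genes above the median level and 9.12% of all 27025. Among the 13 of these that fell it was in 4 (30.8%). GGGCGG was in 71.1% of the 38, 69.2% of genes above the median level and 35.9% of all, and CCAAT in 42.1%, 39.6% and 37.9%. Searches for the sites of NRF1 and YY1 and for the E2F-like TTTGGCGC and TTTCCCGC found at most 1 of the 38 each (2.45%, 2.49%, 1.21% and 2.17% of promoters of genes above the median level, and 0.977%, 0.899%, 0.537% and 1.11% of all). A match is a description of these letters and not a measured site.

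Cells depleted of Tardbp also had lower cell cycle transcripts. Of 27 cell cycle genes measured, 25 fell, with a median change of -0.58 (17.0% of all genes fell, and 27.1% of those above the median level), and the list's median on single arrays was -0.64 to -0.57 in shTardbp and -0.06 to 0.07 in the controls. The median of the 48 spliceosome genes was -0.20 to -0.12 in shTardbp, -0.12 to -0.01 in shGFP and 0.01 to 0.06 in shLuciferase. The part of proliferation in the spliceosome values was not tested. Every shTardbp array lay below every control array in the spliceosome median, by the least against shGFP 1.

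**Figure D2:**
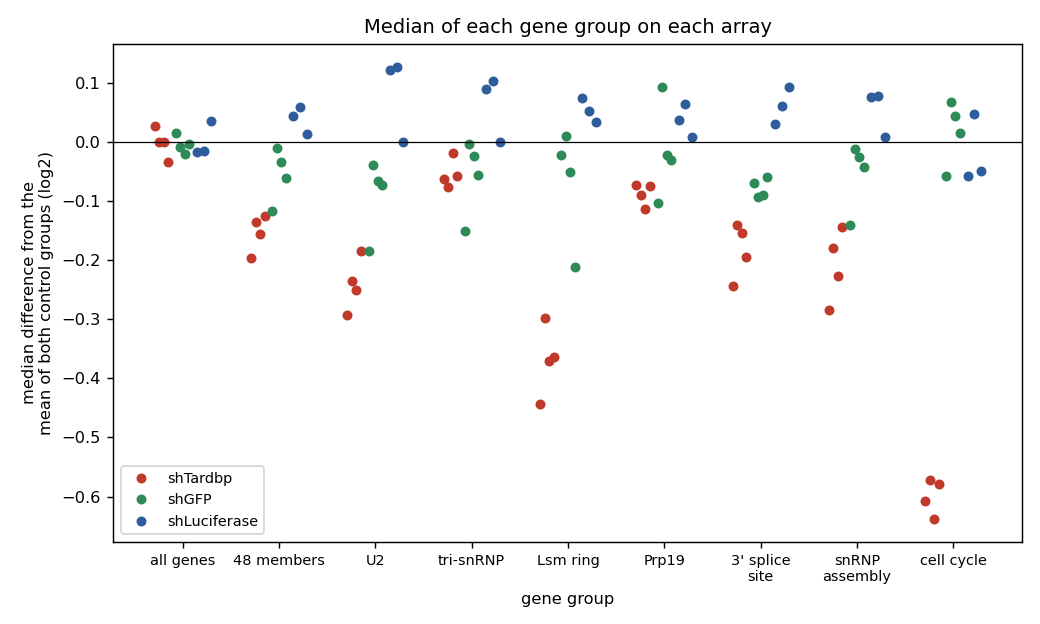
Median log2 difference from the mean of both control groups (y axis) for each gene group on each of the 11 arrays. The spliceosome medians of the shTardbp arrays (red) run from -0.20 to -0.12, those of cell cycle genes from -0.64 to -0.57, and the medians of all genes stay near 0 on every array.

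Within the tri-snRNP, Prpf31 had the largest fall of all 48 genes. Its protein joins U4/U6 to U5, and inherited mutations of the human gene cause retinitis pigmentosa. Prpf31 was at 7.79, 7.76, 7.79 and 7.73 in shTardbp 1 to 4, at 8.30, 8.42, 8.44 and 8.37 in shGFP and at 8.62, 8.71 and 8.65 in shLuciferase. The 3 groups did not overlap, with shTardbp lowest and shLuciferase highest. Prpf31 fell 1.69-fold (log2 change -0.75, SE 0.0527, limma adjusted p = 2.53e-07). All 15 of its probe sets were lower, by -0.21 to -1.54, and 14 of them passed on their own.

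Of the 10 tri-snRNP genes, Prpf31 included, 4 fell and 2 rose, with a median of -0.05. Usp39, a catalytically inactive member of the ubiquitin protease family that recruits the tri-snRNP, was at 9.80, 10.03, 9.87 and 9.84 in shTardbp, 10.24, 10.17, 10.14 and 10.17 in shGFP and 10.06, 10.20 and 10.18 in shLuciferase. The shTardbp values lay below all controls, with shTardbp 2 just under shLuciferase 1 (-0.28, SE 0.0601, adjusted p = 0.0027). Snrnp27, a tri-snRNP protein with an arginine- and serine-rich region, was at 8.89, 8.96, 9.03 and 8.95 in shTardbp, 9.01, 9.36, 9.28 and 9.15 in shGFP and 9.22, 9.26 and 9.28 in shLuciferase. It fell by 0.27 (SE 0.0674, adjusted p = 0.007), and shTardbp 3 overlapped with shGFP 1.

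Txnl4a and Snrnp200, both of U5, rose. Txnl4a, a small thioredoxin-like U5 protein, was at 9.31, 9.24, 9.33 and 9.26 in shTardbp, 9.11, 9.21, 9.12 and 9.01 in shGFP and 8.96, 8.96 and 9.07 in shLuciferase. Every shTardbp value lay above every control value (0.23, SE 0.0561, adjusted p = 0.00588), and 12 of its 15 probe sets were higher. With the gene value taken on each array as the median of its probe set levels, however, the change was -0.04. Its 20 neighbouring genes, 10 on each side, had a median change of 0.21, with 10 higher, and its change was 0.04 (adjusted p = 0.719) in a fit after the neighbours' deviation had been subtracted array by array. That deviation is the median over the neighbours on each array, so it need not equal their median change, and the same fit is meant wherever neighbours are subtracted. Snrnp200, the U5 helicase that unwinds U4 from U6, was at 10.20, 10.09, 10.11 and 10.19 in shTardbp, 9.57, 9.74, 9.75 and 9.76 in shGFP and 10.16, 10.15 and 9.87 in shLuciferase. The shTardbp arrays stood above all shGFP arrays and overlapped with shLuciferase 1 and 2 (0.27, SE 0.0693, adjusted p = 0.00914), and 48 of 49 probe sets were higher. Eftud2, the U5 GTPase, changed by -0.16 (adjusted p = 0.0461). Prpf8, the large scaffold protein at the catalytic centre, had a change of 0.01 with a 95% interval of -0.11 to 0.13 over 46 probe sets.

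In the Lsm ring, a set of Sm-like proteins that binds the end of U6 RNA, 3 of 4 measured genes fell, and the median of the 4 was -0.36. Lsm3 was at 9.83, 10.03, 10.05 and 9.65 in shTardbp, 10.55, 10.76, 10.62 and 10.39 in shGFP and 10.75, 10.69 and 10.65 in shLuciferase. All shTardbp values lay below all controls, and Lsm3 fell 1.68-fold (log2 change -0.75, SE 0.0870, adjusted p = 1.94e-05), with each of its 4 probe sets passing. Lsm2 was at 7.28, 7.45, 7.31 and 7.32 in shTardbp, 7.59, 7.85, 7.60 and 7.55 in shGFP and 8.02, 8.21 and 7.90 in shLuciferase. The 3 groups again did not overlap, in the same order as for Prpf31 (-0.51, SE 0.0754, adjusted p = 0.000157). Lsm4 changed by -0.21 (adjusted p = 0.0161), with adjusted p = 0.0633 without shTardbp 1. Lsm8, the subunit found in the nuclear ring alone, had -0.17 (adjusted p = 0.0519). Lsm2, Lsm3 and Lsm4 also belong to a cytoplasmic ring that acts in mRNA decay.

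Among the 10 U2 genes, 5 fell and 1 rose, with a median of -0.18 (27.1% and 19.7% of genes above the median level). The 3 subunits of SF3A, which helps U2 bind the branch point, all fell. Sf3a2 was at 10.32, 10.45, 10.41 and 10.34 in shTardbp, 10.59, 10.76, 10.63 and 10.59 in shGFP and 10.96, 10.96 and 10.98 in shLuciferase, so that the 3 groups stood apart (-0.42, SE 0.0557, adjusted p = 5.47e-05). Sf3a1 was at 9.69, 9.56, 9.59 and 9.54 in shTardbp, 9.78, 10.08, 9.98 and 9.90 in shGFP and 10.26, 10.28 and 10.01 in shLuciferase. All shTardbp values were below all controls (-0.46, SE 0.0728, adjusted p = 0.000238). Sf3a3 was at 8.10, 7.98, 8.04 and 7.86 in shTardbp, 8.12, 8.21, 8.18 and 8.29 in shGFP and 8.21, 8.27 and 8.34 in shLuciferase. Here too there was no overlap, though shTardbp 1 was close to shGFP 1 (-0.24, SE 0.0623, adjusted p = 0.00797). Neighbours of Sf3a1 had a median change of -0.10 and those of Sf3a3 -0.07, and with the neighbours subtracted array by array Sf3a1 stood at -0.29 (adjusted p = 0.00343) and Sf3a3 at -0.12 (adjusted p = 0.19).

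Snrpa1, the U2 protein A′ that contacts the U2 stem with Snrpb2, was at 8.94, 9.29, 9.26 and 9.20 in shTardbp, 9.63, 9.77, 9.63 and 9.62 in shGFP and 9.78, 9.69 and 9.61 in shLuciferase. Both control groups overlapped with each other and lay above all shTardbp arrays, and Snrpa1 fell 1.42-fold (log2 change -0.51, SE 0.0723, adjusted p = 0.000109). Snrpb2 itself had -0.11 (95% interval -0.34 to 0.11). Of the 5 genes of SF3B, the complex whose largest subunit clamps the branch point, 1 fell and 1 rose. Sf3b5, its smallest subunit, was at 9.32, 9.51, 9.36 and 9.22 in shTardbp, 9.82, 9.96, 9.64 and 9.40 in shGFP and 9.90, 9.85 and 9.62 in shLuciferase, overlapping at shGFP 5 (-0.39, SE 0.0988, adjusted p = 0.00711, 2 probe sets). Sf3b2 changed by 0.20 (adjusted p = 0.0489). Of its 20 neighbours 9 rose, with a median of 0.15, and its change was 0.03 with the neighbours subtracted array by array (adjusted p = 0.805). Sf3b4 changed by -0.12 (adjusted p = 0.525) and Sf3b3 by 0.01 (adjusted p = 0.925). Sf3b1, the branch point clamp and a gene often mutated in blood cancers, ranged from 11.34 to 11.56 in shTardbp and 11.31 to 11.61 in the controls, and the 95% interval of its change was -0.14 to 0.14. Phf5a, a further SF3B subunit, is counted with the other spliceosome genes below. It lay at 10.76 to 10.94 in shTardbp and 10.98 to 11.27 in the controls (-0.27, SE 0.0687, adjusted p = 0.00794).

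U1 and the Sm core, the ring of proteins shared by most snRNPs, had 2 genes each on the chosen list, all of them measured. Snrpa, the U1 protein A, was at 7.22, 7.23, 7.38 and 7.05 in shTardbp, 7.32, 7.47, 7.63 and 7.38 in shGFP and 7.69, 7.60 and 7.60 in shLuciferase. It fell by 0.32 (SE 0.0750, adjusted p = 0.00458, 2 probe sets), with overlap between shTardbp 3 and shGFP 1 and 5. Snrnp70, the other U1 gene, had 0.07 (95% interval -0.06 to 0.20). Neither Sm gene passed, the larger change being 0.27 for Snrpd1 (adjusted p = 0.0826). Snrpd1 was at 8.01, 7.94, 8.23 and 7.80 in shTardbp, 7.76, 7.63, 7.46 and 7.43 in shGFP and 7.67, 7.76 and 8.21 in shLuciferase. The overlap was with shLuciferase 4 alone, and without that array Snrpd1 passed as higher (adjusted p = 0.0108). Snrpd1 rose against shGFP (0.42, adjusted p = 0.0184), and its 2 probe sets had changes of -0.17 and 0.71.

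For the minor spliceosome, 1 of 3 genes fell. Snrnp25, a U11 protein, was at 7.33, 7.74, 7.86 and 7.65 in shTardbp, 8.12, 8.72, 8.42 and 7.92 in shGFP and 8.73, 8.21 and 8.38 in shLuciferase. The groups did not overlap but were wide (-0.72, SE 0.147, adjusted p = 0.00179). Of its 20 neighbours 11 fell, with a median of -0.24, and its change was -0.51 with the neighbours subtracted array by array (adjusted p = 0.0188). Snrnp35 (-0.05) and Snrnp48 (0.08) did not pass.

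Of 4 genes for reading the 3′ splice site, 2 fell. Puf60, a partner of the U2AF factor, was at 10.51, 10.60, 10.44 and 10.55 in shTardbp, 10.87, 10.86, 10.68 and 10.71 in shGFP and 10.74, 10.81 and 10.73 in shLuciferase. All shTardbp values lay below all controls (-0.25, SE 0.0590, adjusted p = 0.00506). Rbm17, a splicing factor with a U2AF homology motif, was at 9.07, 9.03, 9.66 and 9.29 in shTardbp, 9.32, 9.73, 10.07 and 10.08 in shGFP and 9.88, 9.81 and 10.07 in shLuciferase. It rests on 2 probe sets and overlapped at shTardbp 3 and shGFP 1 (-0.60, SE 0.149, adjusted p = 0.00694), and with its neighbours subtracted array by array its change was -0.41 (adjusted p = 0.0542). Sf1, the branch point binding protein, had -0.14 (adjusted p = 0.057), and -0.30 with its neighbours subtracted array by array (adjusted p = 0.00156). Smndc1 had 0.06 (adjusted p = 0.565).

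In the Prp19 complex and its partners 1 of 10 genes passed, Bud31 at -0.22 (adjusted p = 0.0492), and the median was -0.08. The complex's name-giving ubiquitin ligase Prpf19 had -0.02 (95% interval -0.29 to 0.25), Cdc5l, its DNA-binding-like core protein, -0.07 (-0.27 to 0.14), and Aqr -0.02 (-0.13 to 0.10). Outside these particles, Slu7, which acts at the second catalytic step, was at 9.16, 9.17, 9.37 and 9.43 in shTardbp, 9.66, 9.89, 9.96 and 9.95 in shGFP and 9.72, 9.67 and 9.63 in shLuciferase. It fell 1.40-fold without overlap (log2 change -0.49, SE 0.0760, adjusted p = 0.000231), and all 18 probe sets were lower. Of its 20 neighbours 10 fell, with a median of -0.19, and with the neighbours subtracted array by array it stood at -0.31 (adjusted p = 0.0157). Prpf38a, which joins with the tri-snRNP, changed by -0.24 (adjusted p = 0.0456); 12 of its 20 neighbours fell, and its change was -0.02 with them subtracted array by array (adjusted p = 0.898).

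**Figure D3:**
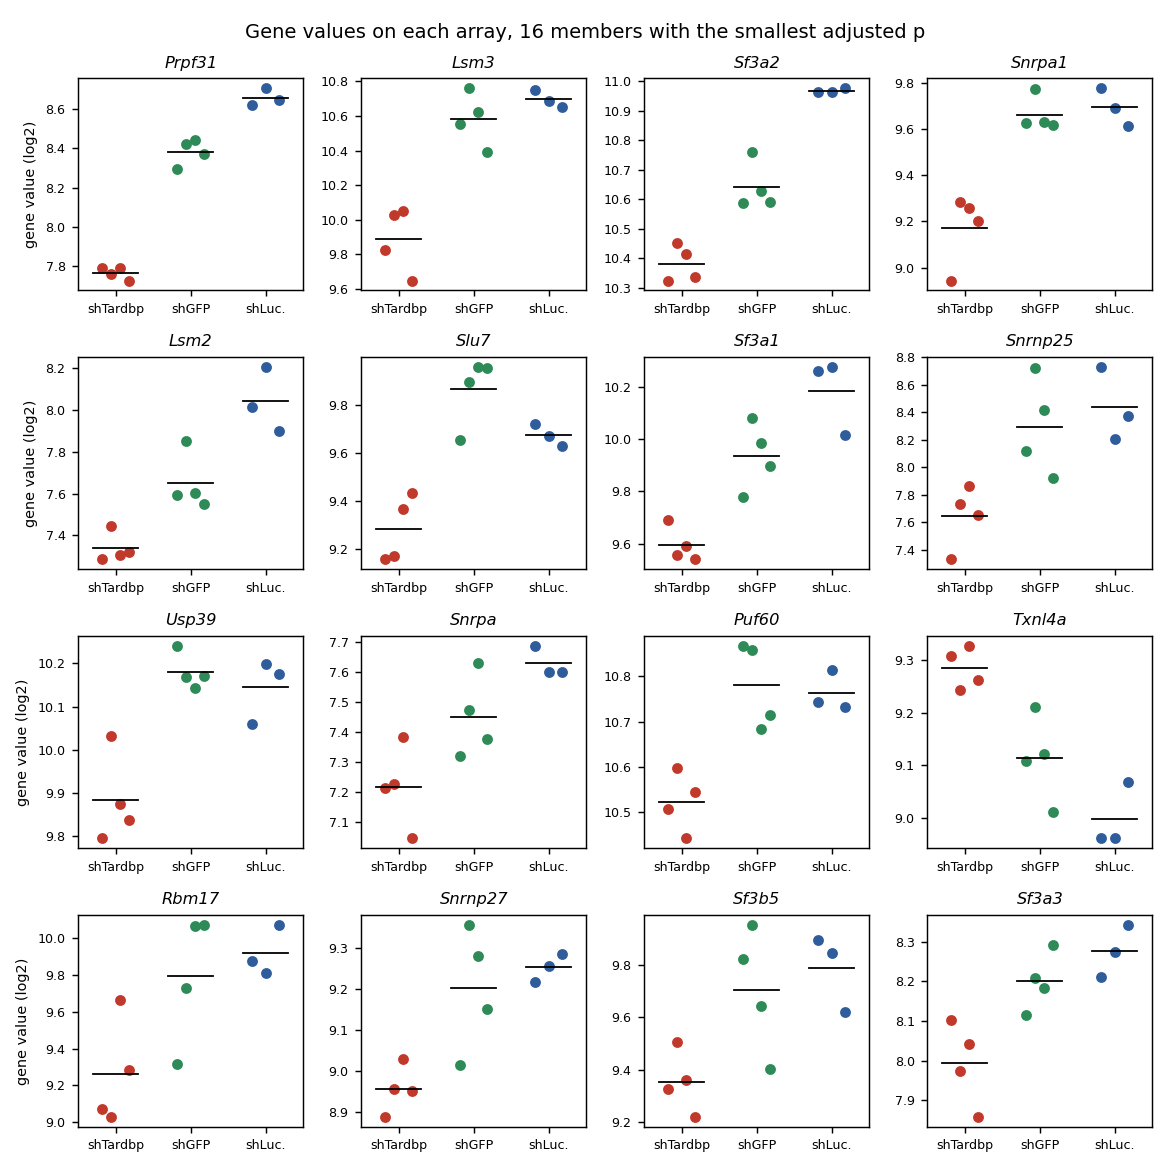
Gene value (y axis, log2, a scale of its own for each gene) on each array for the 16 genes with the smallest adjusted p, with a line at each group mean. Prpf31, Lsm2 and Sf3a2 show 3 separate groups, with shTardbp lowest, and Txnl4a is the gene with shTardbp highest.

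Each of 11 arrays was left out in turn, and 17 of the 22 genes passed every time. Eftud2 lost its call without any of 9 arrays (adjusted p = 0.0181 to 0.141 over the 11), Prpf38a without any of 9 (0.00639 to 0.135), Sf3b2 without any of 8 (0.0275 to 0.119) and Bud31 without any of 8 (0.0353 to 0.143), besides Lsm4. With the code letter as a block, which sets shTardbp mainly against shLuciferase 4, the 19 genes that fell kept their direction, but 5 of the 48 fell and 2 rose past the threshold. Of the 22 genes that had passed, 6 kept their call, where 2109 of all 4825 genes that had passed did. Prpf31 (-0.74, adjusted p = 0.000497), Sf3a2 (-0.43, 0.0140), Lsm3 (-0.70, 0.0156) and Prpf38a (-0.54, 0.0136) were still lower, and Snrnp200 (0.50, 0.00732) and Sf3b2 (0.42, 0.0248) still higher. Snrpb2 passed as lower with the block alone (-0.53, adjusted p = 0.0382). Among arrays of letter P, shLuciferase 4 was higher than every shTardbp array in 29 of the 48 genes and lower in 9 (36.9% and 26.3% of all genes). The 29 hold all 19 that fell and the 9 all 3 that rose, but shLuciferase 4 was itself a control in those calls.

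Each control was also taken alone. These comparisons share the shTardbp arrays. Against shGFP 15 genes fell and 2 rose (of all genes 15.5% and 12.4%, or 27.9% in either direction), and against shLuciferase 20 fell and 1 rose (14.3% and 11.8%, or 26.1%). In 14 genes the fall passed against each control (9.39% of all genes). By limma no core spliceosome gene rose against each (7.69% of all genes), and 1 was higher with unadjusted p under 0.05 in both. The 14 were Prpf31, Lsm3, Sf3a2, Snrpa1, Lsm2, Slu7, Sf3a1, Snrnp25, Usp39, Puf60, Rbm17, Snrnp27, Sf3b5 and Sf3a3. Snrpa, Lsm4, Prpf38a and Eftud2 fell against shLuciferase and had adjusted p = 0.0567, 0.106, 0.716 and 0.375 against shGFP. Snrnp200 rose against shGFP (0.44, adjusted p = 0.000658) and had 0.09 against shLuciferase (adjusted p = 0.552). Txnl4a rose against shLuciferase (0.29, adjusted p = 0.00581) and had 0.17 against shGFP (adjusted p = 0.0568). Bud31 and Sf3b2 passed against neither control, with adjusted p = 0.171 and 0.0534 against shGFP and 0.0609 and 0.174 against shLuciferase.

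**Figure D4:**
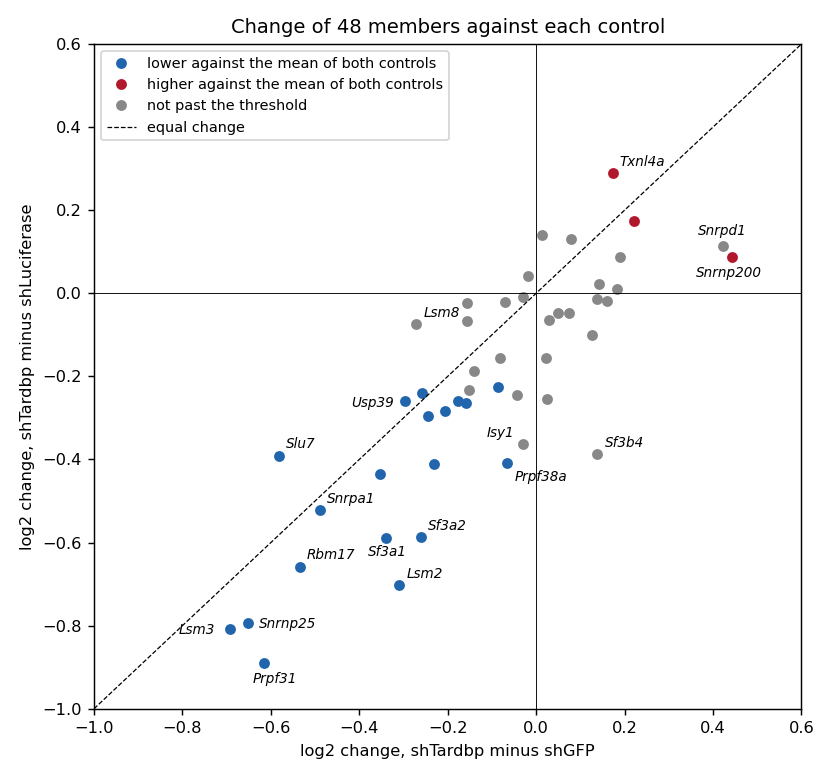
Log2 change of each of the 48 genes against shGFP (x axis) and against shLuciferase (y axis); the dashed line marks equal change. Both axes use the same 4 shTardbp arrays. Most points lie below the line, and Prpf31, Lsm3 and Snrnp25 are farthest from 0.

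The controls themselves differed. Set against shLuciferase, shGFP was lower in 7 of the 48 genes (4.82% of all genes, and 7.51% of those above the median level) and by limma higher in 0 (6.26%), with 1 higher at unadjusted p under 0.05. In 36 of the 48 the difference was below 0 (in 8269 of all 15803 genes), with a median of -0.10. Sf3a2 (-0.33, SE 0.0676, adjusted p = 0.00634), Lsm2 (-0.39, 0.0133), Prpf31 (-0.27, 0.0133), Snrnp200 (-0.35, 0.0142) and Isy1 (-0.33, 0.0264), a Prp19-associated protein, differed most clearly, followed by Sf3b4 (-0.53, 0.0311) and Prpf38a (-0.34, 0.0447). For Prpf31 the fall was -0.62 against shGFP and -0.89 against shLuciferase, and for Lsm2 -0.31 and -0.70. Isy1 was at 8.41 to 8.79 in shTardbp, 8.57 to 8.71 in shGFP and 8.90 to 9.09 in shLuciferase, so its shTardbp values overlapped with shGFP. Without shLuciferase 2 the 7 genes became 1, and without shGFP 5 they became 4.

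Probe sets within a gene mostly moved together in the genes that fell. Genes that did not pass varied, with all 17 probe sets lower in Xab2 but 12 lower and 8 higher in Snrnp70. Of the 631 probe sets of the 48 genes, 378 were below 0, and on their own 92 passed as lower and 23 as higher, which is 14.6% and 3.65% (8.56% and 7.48% of all single probe sets). The 19 genes that fell held 188 of them, 185 below 0, as averaging these into the gene value favours, and in 17 of the 19 every probe set was lower. Usage, which is how far a probe set moved beyond the rest of its gene, was tested with limma over 101898 probe sets in 7531 genes, of which 41 are spliceosome genes. Of their 602 probe sets 3 passed, in 3 genes, where 0.879% of all probe sets and 7.48% of all genes with tested probe sets did. In Slu7, 1 probe set was at 7.56, 7.56, 8.15 and 7.90 in shTardbp, 8.60, 8.97, 9.02 and 9.11 in shGFP and 8.80, 8.42 and 8.48 in shLuciferase. It fell by 0.95, about 0.49 more than the rest of the gene (usage -0.49, SE 0.101, adjusted p = 0.0494). In Sf3a2, 1 probe set was at 11.75 to 11.92 in shTardbp and 11.82 to 11.96 in shGFP, and at least 11.91 in shLuciferase, while the others had a change of -0.46 (usage 0.37, SE 0.0748, adjusted p = 0.0495). In Txnl4a, 1 probe set was at 9.17 to 9.68 in shTardbp and 8.65 to 9.10 in the controls, 0.64 higher, where the others had 0.17 (usage 0.47, SE 0.0894, adjusted p = 0.0383). The next 5 by adjusted p, 1 per gene, did not pass: Sart1 with usage 0.56 (adjusted p = 0.0649), Puf60 with 0.40 (0.0851), Prpf31 with 0.59 (0.107), Snrnp70 with -0.52 (0.115) and Snrnp200 with 0.32 (0.117). Leaving out single arrays left 0 to 2 probe sets past the threshold, and 0 without shGFP 2, shLuciferase 1, 2 or 4, or shTardbp 2. Without genome positions for the probe sets, no exon is named for them.

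**Figure D5:**
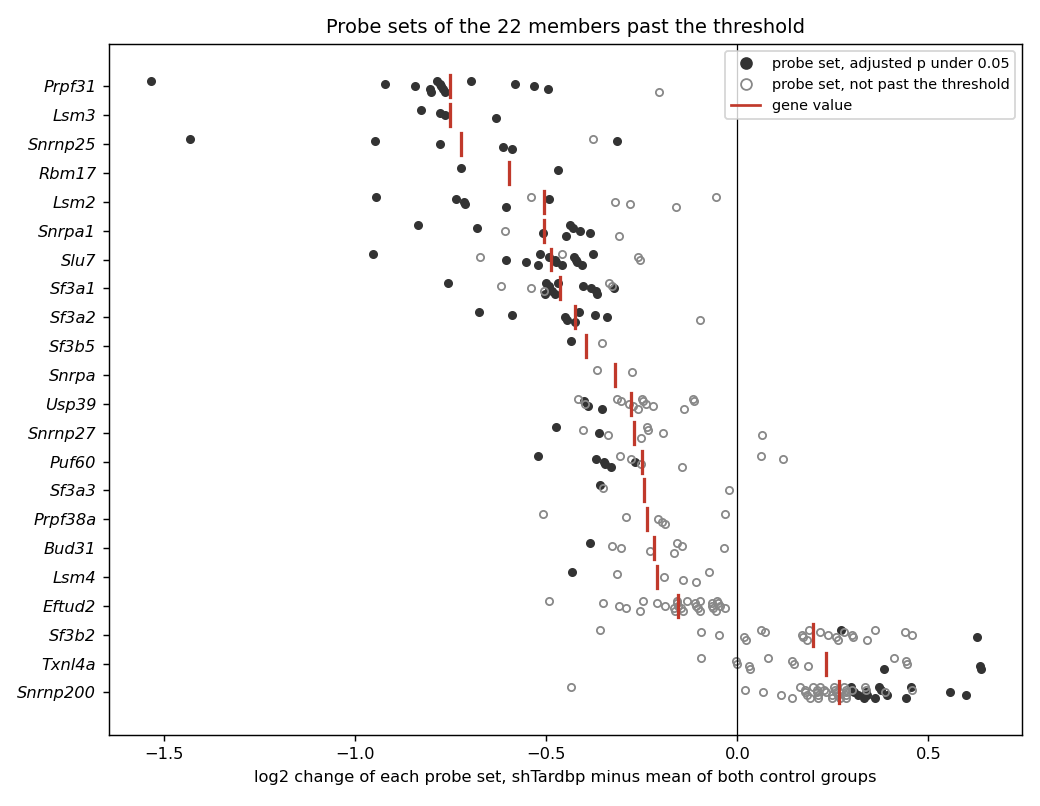
Log2 change of every probe set (points, filled where adjusted p is under 0.05) and of the gene value (red line) for the 22 genes that passed. The 15 Prpf31 probe sets run from -1.54 to -0.21 and the 4 Lsm3 probe sets from -0.83 to -0.63, all below 0; 48 of 49 Snrnp200 probe sets lie above 0.

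The other spliceosome proteins and the factors that assemble snRNPs gave the wider setting. Of 37 other spliceosome genes measured (60 listed), 12 fell and 4 rose, with a median of -0.09, where 27.1% of genes above the median level fell and 19.7% rose (17.0% and 13.5% of all genes). Rnps1, a splicing activator of the exon junction, lay at 11.29 to 11.50 in shTardbp and 11.92 to 12.24 in the controls (-0.63, SE 0.0736, adjusted p = 2.18e-05). The second-step factor Prpf18 lay at 7.66 to 7.87 against 8.16 to 8.53 (-0.65, SE 0.0811, adjusted p = 3.33e-05), and the U11/U12 protein gene Zmat5 at 7.53 to 7.93 against 7.99 to 8.86 (-0.78, SE 0.111, adjusted p = 9.66e-05). None of the 3 overlapped with its controls. Luc7l2, a U1-associated protein (0.35, adjusted p = 0.00139), Ik (0.34, adjusted p = 0.00496) and Srrm2, a large scaffold of nuclear speckles (0.21, adjusted p = 0.0184), rose.

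Of 16 assembly genes measured, 10 fell and 1 rose, with a median of -0.26 (17.0% of all genes fell and 13.5% rose), and the list's median on single arrays was -0.28 to -0.14 in shTardbp and -0.14 to 0.08 in the controls. Their products load Sm rings onto snRNAs and bring snRNPs back to the nucleus. Gemin5, the subunit of the SMN complex that recognises snRNA, lay at 9.62 to 9.86 in shTardbp and 10.04 to 10.38 in the controls (-0.51, SE 0.0774, adjusted p = 0.000185, 35 probe sets). Gemin6 and Gemin8, 2 further SMN complex subunits with 2 probe sets each, had -0.77 (SE 0.143, adjusted p = 0.000874) and -0.36 (SE 0.0819, adjusted p = 0.00367). Gemin6 lay at 5.64 to 6.58 in shTardbp and 6.52 to 7.16 in the controls, a narrow overlap. Phax, the export adaptor of snRNAs, rose by 0.23 (adjusted p = 0.0152). Against shGFP alone 7 of the 16 fell and 0 rose, with a median of -0.13 (15.5% and 12.4% of all genes). Against shLuciferase alone 10 fell and 1 rose, with a median of -0.29 (14.3% and 11.8%).

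On all 11 arrays the 48 spliceosome genes exceeded that array's 25th percentile. The lowest control means were 6.70 (Smndc1), 6.76 (Snrnp35) and 6.9 (Crnkl1) and the highest 11.45 (Prpf8), 11.46 (Sf3b1) and 12.81 (Snrpb2). These are probe signals, which do not rank transcript amounts between genes.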

How the data were processed

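The deposited values are log2 probe set values of 11 arrays, made with Partek and RMA per the submitters' processing notes. For versions, RMA settings and the build, nothing was found in the labels or headers. Of 194293 probe sets, 179496 had 1 gene symbol in the platform annotation, 1328 several and 13469 none. Probe sets with the same single symbol were averaged into a gene value, with no filter. A 3-group linear model covered all 15803 genes (limma 3.58.1, R 4.3.3, lmFit and eBayes). Intervals are 95% and unadjusted. Usage was each probe set minus the mean of the gene's others, with a variance for each probe set, in genes whose level exceeded the median and that had 3 or more probe sets above the 25th percentile. Symbols, gene order and promoters came from RefSeq tables of GRCm38.p6; the arrays' own build is not stated, so no probe set was placed. Cross-hybridisation with pseudogenes, which Sm and Lsm genes have, was not analysed here.

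The genes, lists and tests were chosen with earlier results of these data known. Named are Tardbp, every one of the 48 that passed (the 16 smallest adjusted p-values with all array values), 1 per particle without such a gene, the 5 clearest control differences, the 3 highest and lowest control levels, up to 3 per direction from each other list, and the 8 probe sets with the smallest usage adjusted p, 1 per gene. Any gene named outside this rule was picked with its values known. The fits were tested on simulated data first. A simulated log2 change of 0.5 was found in 33 of 50 genes and one of -0.5 in 38 of 50, while 7 of 15603 unchanged genes passed. For usage, a shift of 1 was found in 170 of 200 probe sets. Smaller changes were not simulated, so a gene or probe set that did not pass may still have changed. Alternatives were another summary of probe sets, filters, normalization, centring, array weights, blocks, the neighbours' shift and left-out arrays.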

Additional observations from a re-analysis of the deposited data

Results flagged for a closer look

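In 96 groups of 4 arrays (the 48 spliceosome genes in shTardbp and in shGFP), 3 had 1 array far from the rest, and chance flags about 1 in 20. Snrpa1 was at 9.77 in shGFP 2, where the nearest other shGFP array had 9.63. Snrnp200 was at 9.57 in shGFP 1, against 9.74 to 9.76 in the other shGFP arrays. Xab2, an XPA-binding protein that joins the spliceosome, was at 10.02 in shTardbp 3, against 10.27 to 10.33 in the other shTardbp arrays.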

How the results depend on the processing

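Of the 22 genes that passed against both controls, the direction held under the 9 alternatives other than left-out arrays, except for Txnl4a, whose change became -0.044 when probe sets were summarised by their median. They kept their call in 15 (that median) to 22 (genes above the median level) of 22, except with the code letter as a block (6). The cause was not tested. With that block, 5 genes fell against both controls, 2 against shGFP and 12 against shLuciferase. With the neighbours' shift subtracted, 1 rose against both controls and 0 against shLuciferase. In that fit 17 of the 22 kept their call. It also made Sf1 (-0.30, adjusted p = 0.00156), Prpf3 (-0.22, 0.0222), Lsm8 (-0.20, 0.0312) and Snrpd3 (-0.22, 0.0336) pass as lower, which had not passed without it. With the median of the probe sets 0 rose against shLuciferase and 1 was lower in shGFP than in shLuciferase. Genes above the median level, quantile normalization, centring and array weights each gave 4 rises against shGFP, and array weights 11 lower and 1 higher in shGFP than in shLuciferase. Left-out arrays gave 16 to 18 falls and 2 to 3 rises against both controls, 11 to 16 and 1 to 4 against shGFP, 16 to 21 and 1 against shLuciferase, and 1 to 7 lower in shGFP than in shLuciferase; rises against shGFP became 4 without shGFP 2 or shLuciferase 4 and 1 without shGFP 3, shGFP 5 or shTardbp 3. For usage, 10 probe sets passed with diffSplice, 2 without the filter, 0 with the letter as a block and 0 to 2 with left-out arrays. With the replicate block 18 genes fell and 2 rose against both controls, 1 rose against shGFP, 1 was lower in shGFP than in shLuciferase and 0 probe sets passed for usage. Same-numbered arrays deviated together at r over 0.1 in 5 of 8 pairs (-0.06 to 0.26), and 5 of 10 arrays correlated best with their own number, so the numbers were not taken to pair the arrays. Naming by gene identifier was not run, as the annotation used here gave no identifiers and no synonym matched the 7 unmatched symbols. The 11 arrays limit the precision.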
